A study of Equus caballus with 4 samples.

Results

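The mitochondrial ribosomal proteins were examined in differentiating equine satellite cells, the stem cells of skeletal muscle, which had been given gamma-oryzanol (GO) before an exposure to hydrogen peroxide (H2O2). Members were the gene probes of the array whose symbol is MRPL or MRPS followed by a number and at most 1 letter. This gave 125 probes of 65 genes, out of 43603 gene probes with 24998 different names. Of these, 124 probes passed the filter on dim signals, and all 65 genes kept at least 1 probe. Proteins of the mitochondrial ribosome that carry other symbols were handled in a separate list.

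Each of the 4 arrays compared 2 cultures of satellite cells from m. semitendinosus at day 3 of differentiation. The treated culture received 0.125 µM GO, a mixture of ferulic acid esters of plant sterols from rice bran, for 24 h, with 3 mM H2O2 in the last 1 h, and its RNA was labelled with Cy5 (red). The control culture received no GO, and its RNA was labelled with Cy3 (green). Whether controls received H2O2 is not stated in the labels; the methods of the study treat them as exposed, and their medium held the vehicle dimethyl sulfoxide. Muscle came from young stallions, and the methods describe the choice of the best primary cell line, so the replicates may be cultures of 1 line and the p-values measure the spread between these cultures. No array had the dyes swapped, so dye and treatment cannot be told apart. The log2 ratio is treated over control, and errors are SDs over the 4 arrays.

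The mitochondrial ribosome lies in the matrix of the mitochondrion and translates the messenger RNAs of the mitochondrial genome, whose protein products are subunits of the oxidative phosphorylation complexes. Its ribosomal RNAs come from mitochondrial DNA, while all of its proteins are encoded in the nucleus, made on cytosolic ribosomes and imported. Many of these proteins have counterparts in bacterial ribosomes, and the others were added during the evolution of mitochondria. Muscle differentiation is accompanied by a rise in mitochondrial content, so that these genes are of interest in fusing satellite cells.

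Most mitochondrial ribosomal protein probes had a lower signal in the treated cells, by small amounts. The mean log2 ratio was negative for 104 of 124 probes (83.9%, against 49.2% of all 24230 tested probes), and its median was −0.099, against 0.003 over all tested probes. In the limma test with Benjamini-Hochberg adjustment over all tested probes, 30 member probes (24.2%) were lower, where 7.59% of all tested probes were, and 1 member probe (0.806%) was higher, where 9.49% were. The 30 probes belonged to 15 genes, and the higher probe was that of MRPL37. No member reached a fold change of 1.3 (0 of 124, against 1.42% of all tested probes that passed the threshold with this change), the largest being 1.29-fold for MRPL19. Of the 124 probes, 58 had an unadjusted p under 0.05, as did 36.7% of all tested probes.

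These calls were lost when replicate 1, 3 or 4 was left out. Without replicate 1, 3 or 4, 0 of the 124 probes passed in the limma test, with 53, 45 and 46 at an unadjusted p under 0.05, and without replicate 2, 36 passed. The number of probes called over the whole array fell in the same way, from 4137 to 2, 38 and 0 without replicates 1, 3 and 4. The whole-array number without replicate 2 is not given here, so the 36 cannot be read against it. With each array centred on its median in place of loess, 0 members passed (3 at an unadjusted p under 0.05), and 12 probes (0.0495%) passed over the whole array. With no replicate block, that is, with the channels of an array taken as unpaired, 4 members passed of 594 probes (2.45%) over the whole array, so that the share of members was near that of all probes.

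After loess normalisation the median of the family was below that of all tested probes on every array, and the size of the difference varied between them. The median log2 ratio of the 124 probes was −0.085 on array 1, −0.027 on array 2, −0.20 on array 3 and −0.11 on array 4. Over all tested probes the medians lay between −0.010 and 0.0074. Array 3 was therefore the lowest and array 2 the closest to 0, with 116 and 73 negative member probes of 124, respectively. When arrays were only centred on their medians, the direction turned on array 2, where the median was 0.20 for the members and 0.16 for all tested probes. On all 4 arrays, 63 member probes (50.8%) were negative, where 21.2% of all tested probes were, and 3 were positive, where 22.6% of all tested probes were. In these cultures, fewer cells of a type and less RNA per cell cannot be told apart.

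**Figure D1:**
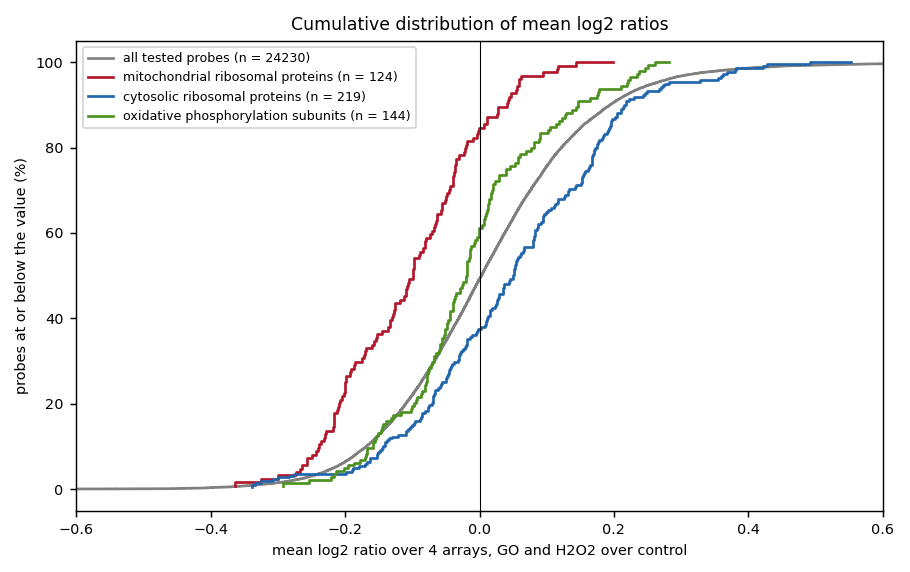
Cumulative share of probes (percent, vertical axis) by mean log2 ratio over the 4 arrays (horizontal axis) for all 24230 tested probes, 124 mitochondrial ribosomal protein probes, 219 cytosolic ribosomal protein probes and 144 oxidative phosphorylation probes. The curve of the mitochondrial ribosomal proteins crosses 0 at 83.9% and lies to the left of the others over most of its range.

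The probes are not independent of one another. Of the 65 genes, 40 had 1 probe and 25 had several, and in 11 genes probes of 60 bases were placed at steps of 1 base, so that they shared nearly all of their sequence. With each gene given by its brightest tested probe, 10 of 65 genes (15.4%) were lower, where 7.16% of all 13692 gene names were, and 1 (1.54%) was higher, where 9.93% were. The median over the 65 genes was −0.081, and 52 of them were negative (80.0%, against 47.5% of all gene names). In 20 of the 25 genes with several probes, every tested probe had a negative mean. This count includes MRPS17, of which only 1 probe was tested, and many of the probes overlap. The share over all genes of the array with several probes was not computed.

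Among the large subunit proteins with bacterial counterparts, MRPL19 had the lowest probe of the family. The 2 probes of MRPL19 lie at chr15:24183449-24183508 and chr15:24183406-24183465 (EquCab1, the build in the file headers). Both sequences are shown since they are 2 readings of the same stretch of the transcript that overlap by 17 bases, which are in capitals.
MRPL19, transcript position 744: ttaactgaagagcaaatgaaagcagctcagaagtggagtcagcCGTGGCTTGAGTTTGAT
MRPL19, transcript position 787: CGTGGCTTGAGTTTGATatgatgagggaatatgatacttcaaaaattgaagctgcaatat

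The probe at position 744 gave log2 ratios of −0.31, −0.35, −0.40 and −0.40 on arrays 1 to 4. Its log2 signal was between 10.13 and 10.46 in the treated channel and between 10.43 and 10.86 in the control channel, and it was lower in the treated channel on each array. The mean was −0.36 ± 0.0445 (SD, n = 4 arrays), a 1.29-fold lower signal (adjusted p = 0.0125). The probe at position 787 gave −0.28, −0.29, −0.31 and −0.19, with a mean of −0.26 ± 0.052 (adjusted p = 0.0177). Both probes were thus negative on all arrays.

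MRPL47, which sits near the exit of the peptide tunnel, also passed at both of its probes. The brighter one gave −0.31, −0.20, −0.39 and −0.18 on arrays 1 to 4, with a mean of −0.27 ± 0.097 (adjusted p = 0.0225). The other probe had a mean of −0.32 ± 0.073 (adjusted p = 0.0153). MRPL3, a protein close to the peptidyl transferase centre, gave −0.27, −0.20, −0.13 and −0.11, with a mean of −0.17 ± 0.071 (adjusted p = 0.041). Arrays 1 and 2 were the lowest for MRPL3, whereas arrays 1 and 3 were the lowest for MRPL47.

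Most other large subunit proteins of this origin did not pass. Of 26 genes, 3 (11.5%) were lower at the brightest probe, where 7.16% of all gene names were, and the median was −0.075. MRPL12, the stalk protein that contacts translation factors, gave −0.075, 0.021, −0.22 and −0.12, with a mean of −0.098 ± 0.10 (adjusted p = 0.198). MRPL14, which lies at the interface of the subunits, gave 0.016, −0.14, −0.13 and −0.069 (mean −0.082 ± 0.073, adjusted p = 0.221). For MRPL21 the values were 0.012, 0.0088, −0.18 and −0.20 (mean −0.089 ± 0.11, adjusted p = 0.267). MRPL12 and MRPL14 were each positive on 1 array and MRPL21 on 2. MRPL32 was named by its symbol only, since its probe carried the description of a cDNA clone, and had a mean of −0.039 ± 0.073 (adjusted p = 0.548).

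Among the large subunit proteins classed here as without a bacterial counterpart, 4 of 15 genes (26.7%) were lower and 1 (6.67%) was higher. The median of this class, which includes MRPS18A, was −0.063. Of all gene names, 7.16% were lower and 9.93% higher. MRPL50 passed at all 5 of its probes, which start at successive bases. The first and last of these are shown since they share 56 bases, in capitals, so that their values are repeat readings of a single site. The last one ends at the stop codon of the reading frame.
MRPL50, transcript position 347: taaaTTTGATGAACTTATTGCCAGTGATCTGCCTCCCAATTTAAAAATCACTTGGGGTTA
MRPL50, transcript position 351: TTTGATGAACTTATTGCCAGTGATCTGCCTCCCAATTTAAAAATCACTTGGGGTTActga

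The brightest of the 5 probes gave −0.28, −0.25, −0.27 and −0.14 on arrays 1 to 4, with a mean of −0.24 ± 0.066 (adjusted p = 0.022). Means of the 5 probes ran from −0.27 to −0.24, with adjusted p from 0.017 to 0.0279. Within single arrays the readings spread more, and on array 4 the 5 probes ran from −0.25 to −0.0945.

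MRPL51 likewise passed at 5 of 5 probes, with means between −0.22 and −0.20. Its brightest probe gave −0.13, −0.17, −0.35 and −0.15, with a mean of −0.20 ± 0.10 (adjusted p = 0.0411), and array 3 stood below the other arrays. MRPL39 gave −0.28, −0.096, −0.355 and −0.11 (mean −0.21 ± 0.13, adjusted p = 0.0469). For MRPL42 the values were −0.16, −0.19, −0.29 and −0.16 (mean −0.20 ± 0.061, adjusted p = 0.029), and 2 of its 3 probes passed. All of these values were below 0, and array 3 was the lowest for each of the 3 genes.

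MRPL37, also a protein particular to the mitochondrial ribosome, was the gene that went the other way. It gave 0.090, 0.26, 0.15 and 0.29 on arrays 1 to 4, with a mean of 0.20 ± 0.093 (adjusted p = 0.039) at a single probe. MRPL36 was positive on all arrays as well, with 0.13, 0.19, 0.062 and 0.19, and did not pass (mean 0.14 ± 0.061, adjusted p = 0.0582). This gene was chosen after its values were seen, as the next highest after MRPL37. MRPS18A, which has a small subunit symbol and is a protein of the large subunit, gave 0.0021, 0.072, −0.26 and −0.060 (mean −0.063 ± 0.145, adjusted p = 0.486).

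In the small subunit, 3 of 24 genes (12.5%) were lower at their brightest probe, where 7.16% of all gene names were. The median over the genes was −0.11, with 21 genes negative (87.5%, against 47.5% of all gene names). MRPS22 and MRPS35, both without a bacterial counterpart, had nearly equal means. MRPS22 gave −0.23, −0.20, −0.35 and −0.25 on arrays 1 to 4 (mean −0.26 ± 0.068, adjusted p = 0.0196). MRPS35 gave −0.26, −0.19, −0.33 and −0.24 (mean −0.26 ± 0.060, adjusted p = 0.019), and its second probe passed as well, with a mean of −0.19 (adjusted p = 0.0318). In both genes the order of the arrays had array 3 lowest and array 2 highest.

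MRPS18C, one of the mammalian relatives of a bacterial small subunit protein, had the largest spread of the small subunit genes that passed. Its brightest probe gave −0.14, −0.11, −0.40 and −0.21 (mean −0.22 ± 0.13, adjusted p = 0.0459). Of its 3 probes 2 passed, and their means ran from −0.30 to −0.13. The remaining probe was near 0 on arrays 1 and 2, with −0.0050 and 0.0498.

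**Figure D2:**
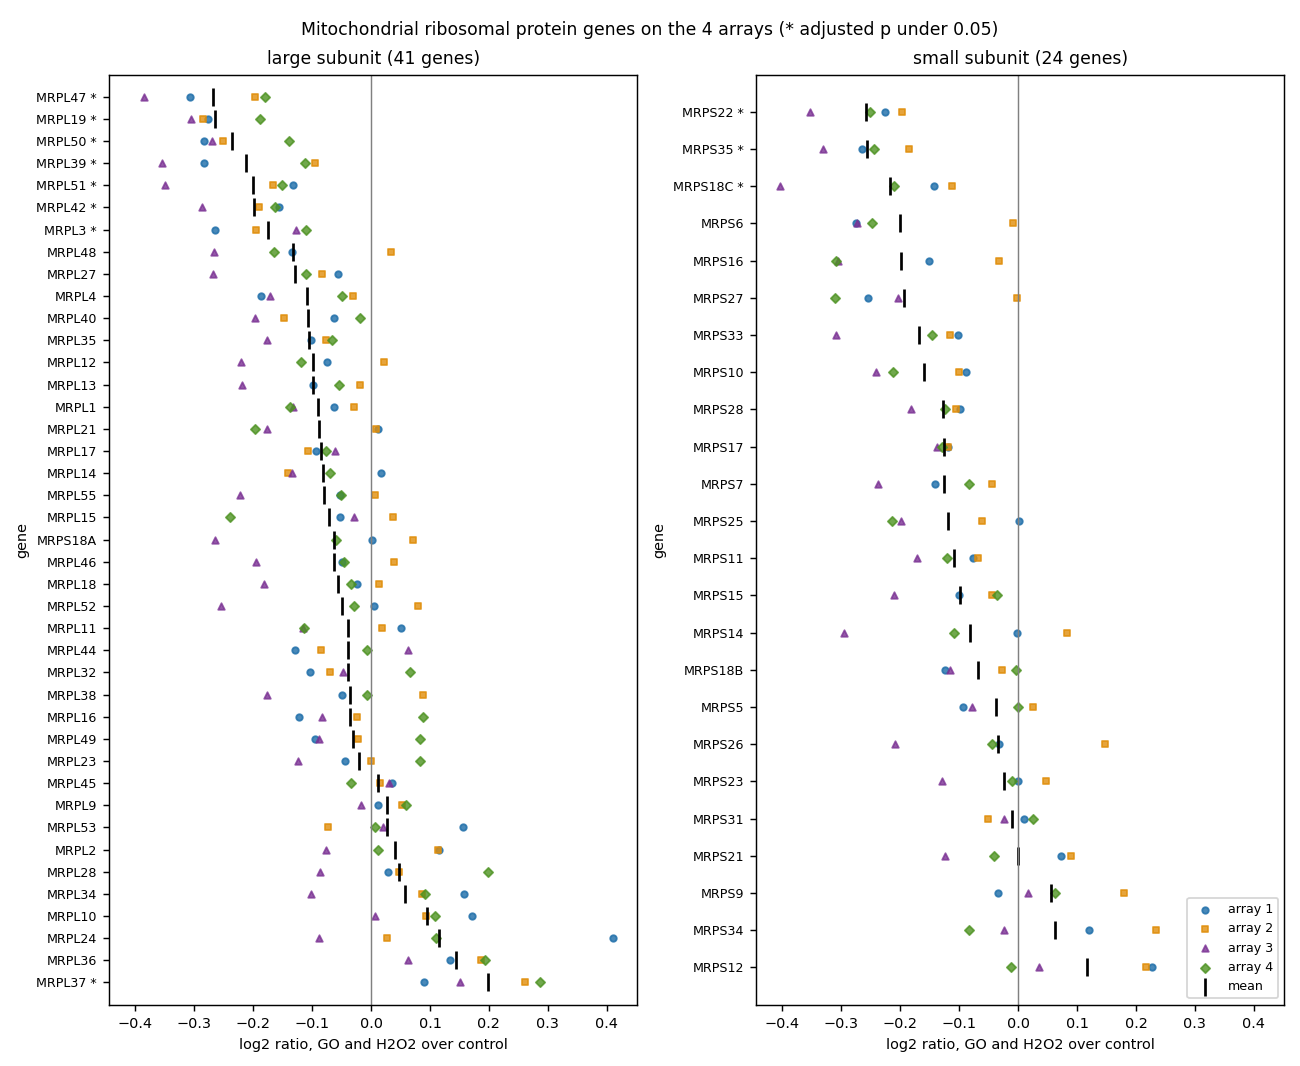
Log2 ratio of treated over control (horizontal axis) for the brightest tested probe of each gene (vertical axis), in 41 large subunit genes (left) and 24 small subunit genes (right). Symbols are the 4 arrays, the vertical bar is their mean, and a star marks an adjusted p under 0.05 (7 lower and 1 higher in the large subunit, 3 lower in the small subunit).

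Some bright probes did not pass. MRPS23, a small subunit protein without a bacterial counterpart, gave −0.00040, 0.047, −0.13 and −0.010 (mean −0.023 ± 0.0755, adjusted p = 0.732). MRPS14 gave −0.0026, 0.083, −0.2955 and −0.11 (mean −0.081 ± 0.16, adjusted p = 0.405). For MRPS16 the values were −0.15, −0.032, −0.31 and −0.31 (mean −0.20 ± 0.13, adjusted p = 0.0577). The mean of MRPS16 was thus the same as that of MRPL51, but MRPS16 missed the threshold, with array 2 near 0. Of the 5 overlapping probes of MRPS16, 2 passed, and another read 0.28 on array 2.

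In 5 genes, the brightest probe did not pass and another probe did. Besides MRPS16 these were MRPL1, MRPL15, MRPS31 and MRPS33, which were chosen after their values were seen. Among these 5, MRPS31 had the widest range of means. At transcript position 190 it gave −0.24, −0.22, −0.33 and −0.14 (mean −0.23 ± 0.0785, adjusted p = 0.0252), and at position 919 it gave 0.011, −0.051, −0.025 and 0.026 (mean −0.0099 ± 0.035, adjusted p = 0.872). The values of the 2 probes did not overlap. Both lie on unplaced sequence in the build of the array.

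MRPS6 had 9 probes, none of which passed in the limma test (smallest adjusted p 0.0515, with 4 of 9 at an unadjusted p under 0.05). These probes fell into a group of 5 that start at positions 163 to 167 and a group of 4 that start at positions 284 to 349. A probe of each group is shown since the groups share no sequence, and the values differ between them.
MRPS6, transcript position 163: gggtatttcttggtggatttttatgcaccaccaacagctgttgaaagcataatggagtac
MRPS6, transcript position 284: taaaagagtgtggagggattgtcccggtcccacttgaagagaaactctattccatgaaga

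Means of the first group lay between −0.074 and 0.059, and those of the second group between −0.22 and −0.19. The probe at position 284, the brightest, gave −0.28, −0.0081, −0.27 and −0.25 on arrays 1 to 4 (mean −0.20 ± 0.13, adjusted p = 0.0539). On array 2 the second group read between −0.011 and 0.045, and on the other arrays between −0.35 and −0.20. The first group was likewise highest on array 2, where it read between 0.10 and 0.23. In the horse RefSeq gene table (TB-T2T assembly) the MRPS6 gene overlaps SLC5A3, a myo-inositol transporter gene, and which transcripts each group of probes detects was not tested.

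**Figure D3:**
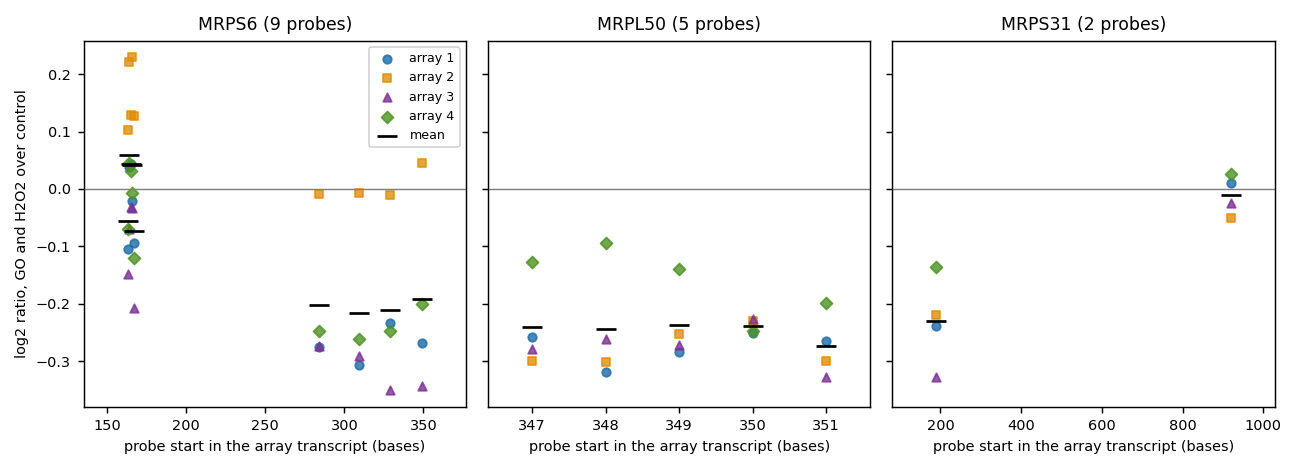
Log2 ratio (vertical axis) against the start of the probe in the array's transcript (horizontal axis, bases) for MRPS6 (9 probes), MRPL50 (5 probes) and MRPS31 (2 probes). Symbols are the 4 arrays and bars their means: the means of the 5 MRPL50 probes lie close together, while MRPS6 and MRPS31 have a group of probes near 0 and another near −0.2.

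MRPS17, a small subunit protein with a bacterial counterpart, has to be read with care, since the description of both of its probes names ZNF713, a zinc finger protein. The probe that was tested lies at chr13:286783-286842 (EquCab1). Its sequence is shown with capitals at the 42 bases that encode, in one of its 3 reading frames, a phenylalanine, 5 residues, a leucine, 2 residues and a pair of histidines 3 residues apart, as in the second part of a C2H2 zinc finger.
MRPS17, transcript position 1131: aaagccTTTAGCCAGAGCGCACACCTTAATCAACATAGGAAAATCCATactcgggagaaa

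This pattern, read in the sense of the probe only, was found in 1 of 125 member probes (0.8%) and in 133 of all 43603 gene probes (0.305%). The probe gave −0.12, −0.12, −0.14 and −0.13 on arrays 1 to 4 (mean −0.13 ± 0.0092, adjusted p = 0.0575), the most even values of the family. The adjacent probe was not well above background on enough arrays and was not tested. These values belong to the transcript the probe was designed on, and its identity as MRPS17 was not tested.

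A further 13 probes, found after the data were seen, carry other names but have a mitochondrial ribosomal protein in their description. Their mean was negative for 12 of 13, with a median of −0.11, and 1 passed. It is described as MRPS30, a large subunit protein in spite of its symbol, and gave −0.31, −0.20, −0.47 and −0.42 (mean −0.35 ± 0.12, adjusted p = 0.0179). The 5 probes described as MRPL20 had means from −0.16 to −0.14, and the 5 described as MRPS24 from −0.088 to −0.049. MRPL43 was the one above 0 (mean 0.082 ± 0.077).

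Ribosomal proteins of the cytosol and subunits of oxidative phosphorylation were described alongside. Most of the latter assemble with the products of mitochondrial translation. Of all tested probes, 7.59% were lower and 9.49% higher. Of 219 cytosolic ribosomal protein probes, 14 (6.39%) were lower and 51 (23.3%) higher, and the median was 0.051. Of 144 oxidative phosphorylation probes, all of nuclear genes, 14 (9.72%) were lower and 12 (8.33%) higher, and the median was −0.019. After loess normalisation the median over probes of the mitochondrial ribosomal proteins was the lowest of the 3 families on each array. With the brightest probe per gene, the medians on array 2 were nearly equal, at −0.022 for the members and −0.019 for the cytosolic ribosomal proteins. By array, the medians over probes of the oxidative phosphorylation subunits were 0.056, 0.0044, −0.11 and −0.020, and those of the cytosolic ribosomal proteins 0.12, 0.00050, 0.036 and 0.077. The differences between families were not tested.

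**Figure D4:**
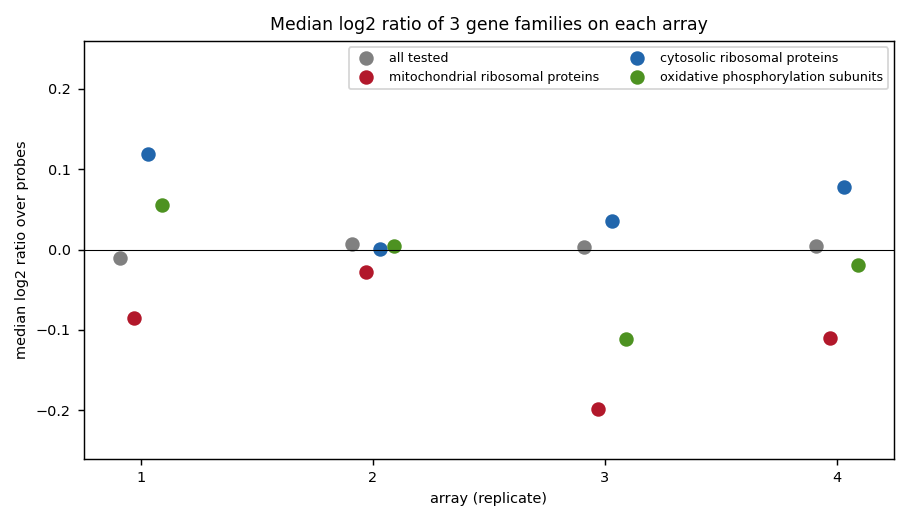
Median log2 ratio over probes (vertical axis) on each array (horizontal axis) for all tested probes and for the 3 gene families. After loess normalisation, mitochondrial ribosomal proteins lie below the others on each array, from −0.027 on array 2 to −0.20 on array 3.

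The genes that serve the mitochondrial ribosome were given by their brightest probe from lists chosen by function. Of 58 tested genes of 61 on the array, 10 were lower and 0 were higher in the limma test, with 28 at an unadjusted p under 0.05, where 7.16% and 9.93% of all gene names were lower and higher. Their median was −0.088. Of the mitoribosomal proteins with other symbols, CHCHD1, a small subunit protein, was lower, with −0.20, −0.22, −0.27 and −0.13 on arrays 1 to 4 (mean −0.21 ± 0.0605, adjusted p = 0.0273). DAP3, a GTP-binding small subunit protein, had a mean of −0.15 ± 0.11 (adjusted p = 0.083). PTCD3, an RNA-binding small subunit protein, had −0.15 ± 0.11 (adjusted p = 0.0921), and ICT1, a peptidyl-tRNA hydrolase within the large subunit, −0.072 ± 0.099 (adjusted p = 0.33).

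Among 10 translation factors all means were negative, with a median of −0.13, and 2 were lower, where 7.16% of all gene names were. One was GUF1, an elongation factor, with −0.18, −0.25, −0.21 and −0.24 (mean −0.22 ± 0.0325, adjusted p = 0.0203). Of 22 ribosome assembly genes, 2 were lower, again where 7.16% of all gene names were, and the median was −0.047. MTERFD1, which takes part in mitochondrial transcription and ribosome assembly, gave −0.29, −0.29, −0.23 and −0.22 (mean −0.26 ± 0.036, adjusted p = 0.0166). The 6 tested nuclear regulators of mitochondrial genes had a median of 0.019, and 0 passed, with 2 at an unadjusted p under 0.05.

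Of the functional lists, genes of mitochondrial transcription and RNA handling had the most calls, with 5 of 16 lower, where 7.16% of all gene names were. Differences between the lists were not tested. GRSF1, a protein of the mitochondrial RNA granules, gave −0.34, −0.34, −0.33 and −0.28 on arrays 1 to 4 (mean −0.32 ± 0.030, adjusted p = 0.0136). LRPPRC, which stabilises mitochondrial messenger RNAs, gave −0.26, −0.22, −0.28 and −0.24 (mean −0.25 ± 0.026, adjusted p = 0.017). Its partner SLIRP gave −0.18, −0.14, −0.38 and −0.23 (mean −0.23 ± 0.11, adjusted p = 0.032). GRSF1 and LRPPRC were thus nearly even across arrays, while SLIRP was lowest on array 3. SUPV3L1, a mitochondrial RNA helicase, and TRMT10C, which acts in mitochondrial tRNA processing, had means of −0.19 ± 0.059 (adjusted p = 0.0303) and −0.20 ± 0.068 (adjusted p = 0.0293).

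The base composition of the probes moved with the log2 ratio of the members. Across the brightest probes of the 65 genes, which share the same 4 arrays, Pearson's r between the number of G and C bases and the mean log2 ratio was 0.536, against 0.136 across all 13692 gene names. By array it was 0.484, 0.458, 0.435 and 0.427. For the oxidative phosphorylation subunits r was 0.276 over 48 genes, and for the cytosolic ribosomal proteins 0.0078 over 62 genes. Of 15 genes with at most 24 G and C bases of 60, 7 were lower, with a median of −0.20, while 10.0% of all gene names in this class were lower. Of 34 genes with 25 to 30 such bases, 3 were lower and 1 higher, with a median of −0.082, while 6.65% of all gene names in this class were lower, a share close to that of the members. Of 16 genes with 31 or more, 0 passed in the limma test (4 at an unadjusted p under 0.05), with a median of −0.026, and 1.81% of all gene names in this class were lower.

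In an alternative added after seeing the data, the median of all probes of the same base composition was taken from each array. With it, 31 member probes passed (30 lower and 1 higher), of which 28 were among the 31 called without it. The share of all tested probes that passed with this correction is not given here. The median over the 65 genes was then −0.092 and r was 0.344. Base composition thus still moved with the log2 ratio within the family after the correction, and its part in the calls was not tested.

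**Figure D5:**
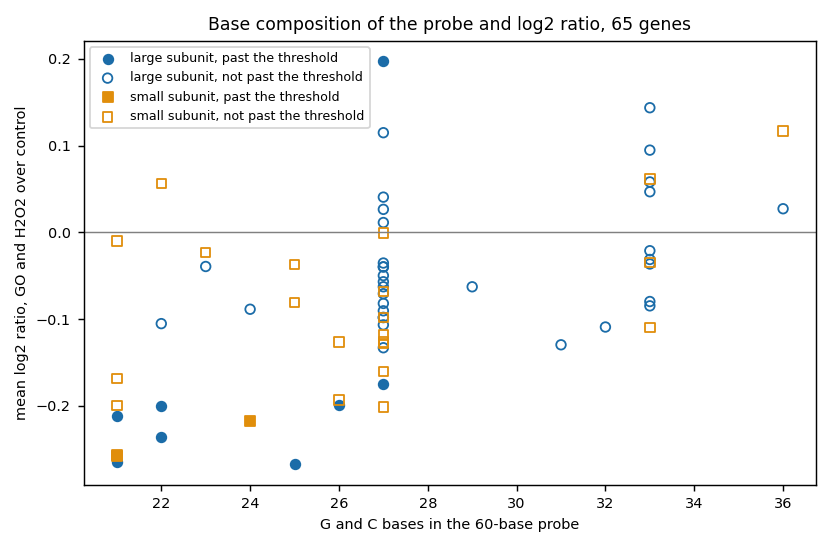
Mean log2 ratio (vertical axis) of the brightest tested probe of each of the 65 genes against the number of G and C bases in the probe (horizontal axis). Filled symbols passed the threshold: 7 of the 10 lower genes have at most 24 G and C bases.

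The myogenic markers found on the array by symbol, which did not include PAX7 or MYMK, were above background. Of these 8 markers, all were tested and 4 were higher (MYOG, MYH8, CKM and MYH3), where 9.93% of all gene names were. The median of the 8 was 0.24. Their summed signal lay between 146702 and 173741 in the treated channel and between 126639 and 139945 in the control channel. Of 5 fibroblast markers on the array, 4 were tested, with summed signals of 174766 to 198009 in the treated and 149618 to 180489 in the control channel. Among these, LUM was lower (mean −0.43 ± 0.0997, adjusted p = 0.0131) and THY1 higher (mean 0.28 ± 0.14, adjusted p = 0.029). None of the 3 adipocyte and 4 endothelial markers was well above background, and of 3 leukocyte markers 2 were, with summed signals of 831 to 921 in the treated and 876 to 960 in the control channel. The part of these markers in the values of the ribosomal proteins was not tested.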

How the data were processed

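The authors deposited spot intensities of 4 two-colour Agilent horse arrays of 1 slide, which the file headers say were extracted with Agilent's Feature Extraction (version 10.10.1.1). The deposited log10 ratios (red over green of the background-subtracted, dye-normalised intensities) are the same in the authors' series matrix. Here mean intensities were corrected with normexp (offset 50) and normalised within arrays by loess. Control spots and outlier spots were left out and spots of a probe averaged. A probe was tested when the same channel, red or green, was well above background on all 4 arrays, which left 24230 of 43603 gene probes (55.6%). In R (version 4.3.3), limma (version 3.58.1) fitted the mean log2 ratio of each probe with lmFit and eBayes. The two-sided test was against 0, p-values were adjusted over all tested probes by the method of Benjamini and Hochberg, and the threshold was 0.05. The limit of 1.3-fold is that of the study's methods, whereas its list of genes was given with a lower fold limit and includes MRPS17. The ratio pairs the channels of an array, which carry the same replicate number: their deviations from the channel means correlated by 0.36, 0.118, 0.356 and 0.582. Both channels are read from the same spots, so these correlations cannot show whether the cultures themselves were paired.

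A gene is given by its brightest tested probe. Named genes were up to 15 lowest and 10 highest among those that passed, MRPL19, MRPS17, MRPS18A, MRPS30 and MRPL12, the 5 brightest that did not pass, genes whose description names another gene or none, genes with an array far from the others, 8 genes of the functional lists and mitoribosomal proteins with other symbols. Members and lists were chosen with earlier results of these data known. Of the 65 symbols, 63 matched the horse RefSeq gene table. The code was tested on simulated data. Alternatives were other background corrections and normalisations, other filters on dim probes, other variance models, the methods' t-test, unpaired channels, the mean over a gene's probes and each replicate left out. The number of arrays limits the precision.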

Additional observations from a re-analysis of the deposited data

Results flagged for a closer look

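In 2 of the 65 genes, 1 array lay far from the other 3 at the brightest probe by Dixon's criterion, which sets apart about 5% of groups by chance. For MRPL51 the value of −0.35 on array 3 was below the others, which lay between −0.17 and −0.13. For MRPS6 the value of −0.0081 on array 2 was above the others, which lay between −0.28 and −0.25.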

How the results depend on the processing

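The median log2 ratio of the member probes stayed negative under each alternative run, and lay between −0.12 and −0.075 when a replicate was left out. The 31 calls became 0 with median centring of the arrays (3 at an unadjusted p under 0.05), 0 with the methods' t-test after adjustment (45 at an unadjusted p under 0.05, 0 of them with a fold change of 1.3) and 4 with no replicate block, and 0 to 36 when a replicate was left out. Of these 4, all were among the 31. When Agilent's processed signals or the series matrix were used, 21 probes passed, all lower, so that MRPL37 did not. The shares of all tested probes that passed with these values are not given here. The count with a fold change of 1.3 was 0 in the main analysis, 1 (MRPL19) with normexp at offset 0, and 0 when any replicate was left out. The 10 calls among the genes of mitochondrial translation became 0 with median centring (1 at an unadjusted p under 0.05), 0 with the methods' t-test (24 at an unadjusted p under 0.05), 2 with no replicate block and 0 to 12 when a replicate was left out. MRPS23 changed sign, to 0.00020 with Agilent's processed signals or the series matrix, 0.049 with median centring and 0.0054 with a running median over signal. It also changed sign to 0.0023 with the mean over its probes and 0.012 without replicate 3 (range −0.047 to 0.012 over the replicates left out). MRPS18A changed sign, to 0.0046, without replicate 3 (range −0.11 to 0.0046). Over the named genes and alternatives, 425 values kept their direction and side of the threshold, 135 kept the direction and lost the call, 9 gained it and 7 changed sign. The causes were not tested. The base composition correction and a run without the MRPS17 probes (31 calls each) were chosen after seeing the data. For these 2 runs the shares over all tested probes are not given here. With median centring the medians of all tested probes on arrays 1 to 4 were −0.27, 0.16, −0.034 and 0.13, and those of the members −0.44, 0.20, −0.27 and 0.076, so that the members lay above all tested probes on array 2 and below them on the others.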
